A study of Mus musculus with 12 samples.

Results

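Transcripts of the T cell receptor gamma locus were followed in mouse T helper 1 (Th1) cells with and without a conditional knockout of Sdhc. Sdhc codes for a membrane subunit of succinate dehydrogenase, an enzyme shared by the citric acid cycle and the respiratory chain. The set holds 5 of the 18929 rows of the deposited table: the variable segment Trgv2, the constant genes Tcrg-C1, Tcrg-C2 and Tcrg-C4, and Sox13, a transcription factor gene of the gamma delta lineage that lies outside the locus. They were chosen by gene symbol with their values in these same libraries already known, so their differences between the groups are described here and not tested. All libraries came from C57BL/6 T cells held for 5 days in Th1 culture, with RNA taken from sorted cells. The control group was 3 libraries of wild-type genotype and the cKO group 3 libraries labelled Sdhc cKO; what drives the deletion, and whether cells of several animals were pooled, is not given in the sources used here. The 6 samples of the other groups (Slc25a1 KO, Slc25a11 KO and empty vector) were not analysed here. Nothing in the labels says that libraries of a group came from separate mice or cultures. The p-values below therefore reflect library-to-library spread alone, and how much of that spread is technical is not known. Sex-linked transcripts differed within each group, as given below, so its 3 libraries did not all hold the same cells.

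T cells carry either an alpha beta or a gamma delta receptor, each assembled from V and J segments, in the beta and delta chains with D segments between them, joined to a constant gene. Both receptors signal through the CD3 chains. Helper T cells, Th1 cells among them, are alpha beta cells. Their precursors nevertheless often rearrange the gamma locus before the choice of lineage, so many alpha beta cells carry joined gamma genes that are largely silenced and give no receptor. Gamma transcripts alone therefore do not mark a gamma delta cell. The mouse gamma locus is a row of V-J-C clusters, in which Trgv2 and Tcrg-C2 belong to the same cluster, Tcrg-V4 can join Tcrg-C1, and Tcrg-V1 joins Tcrg-C4. Sox13 encodes an HMG-box factor best known for the fetal and interleukin-17 branches of gamma delta cells.

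The constant genes are copies of one another, which bears on how reads can be assigned to them. The first 120 bases of exon 1, which is coding in each gene, are shown so that the copies can be compared. They are taken from GENCODE M21 transcripts (GRCm38, the same assembly as mm10) and run 5′ to 3′ in the direction of the gene. Capitals mark each base that differs from Tcrg-C1. The stretches lie at chr13:19214103-19214222 (plus strand), chr13:19307432-19307551 (minus strand) and chr13:19344558-19344677 (plus strand).
Tcrg-C1: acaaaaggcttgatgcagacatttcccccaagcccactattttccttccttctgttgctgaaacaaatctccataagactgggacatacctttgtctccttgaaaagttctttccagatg
Tcrg-C2: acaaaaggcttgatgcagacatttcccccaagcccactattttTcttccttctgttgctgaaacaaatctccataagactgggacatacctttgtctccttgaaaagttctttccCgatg
Tcrg-C4: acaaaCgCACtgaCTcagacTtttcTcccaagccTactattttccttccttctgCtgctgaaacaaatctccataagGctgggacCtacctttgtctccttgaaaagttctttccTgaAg

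In this stretch Tcrg-C2 had 2 differences from Tcrg-C1 and Tcrg-C4 had 14. Over the whole of exon 1, 330 bases in each gene, Tcrg-C1 and Tcrg-C2 were 97.3% identical, Tcrg-C1 and Tcrg-C4 82.1%, and Tcrg-C2 and Tcrg-C4 81.5%. The short exons that follow encode the connecting piece between the constant domain and the membrane, and there the genes differ most in length. Tcrg-C1 has 1 such exon of 45 bases (chr13:19215864-19215908), Tcrg-C2 has 1 of 30 bases (chr13:19305769-19305798), and Tcrg-C4 has 2, of 54 and 45 bases (chr13:19349536-19349589 and chr13:19350330-19350374). Capitals mark the 27 bases at the 3′ end that Tcrg-C1 and Tcrg-C2 share.
Tcrg-C1 exon 2: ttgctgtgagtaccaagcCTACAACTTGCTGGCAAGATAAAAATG
Tcrg-C2 exon 2: ttgCTACAACTTGCTGGCAAGATAAAAATG
Tcrg-C4 exon 2: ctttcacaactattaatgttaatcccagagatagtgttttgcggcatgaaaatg
Tcrg-C4 exon 3: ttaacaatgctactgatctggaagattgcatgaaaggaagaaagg

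Of all stretches of 50 bases in its transcript, Tcrg-C1 had 34.2% in common with a transcript of another gene (Tcrg-C2 or Tcrg-C3), and Tcrg-C2 had 25.4% (Tcrg-C1 or Tcrg-C3). At 100 bases these shares were 8.24% and 0.613%. Trgv2 had 7.01% in common with Tcrg-V1 or Tcrg-V3 at 50 bases and 0% at 100. Tcrg-C4 and Sox13 had 0% at both lengths. Neither the read length nor the treatment of reads with several matches is stated in the labels, so the division of counts between Tcrg-C1 and Tcrg-C2 is uncertain.

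Each value, termed a normalised count, is a gene's read count scaled by its library's size factor. Libraries held 18144933 to 21983821 counted reads. The members were low, at 11 to 166 reads per library, so counting error is a large part of each value; the 95% Poisson intervals given below cover counting error only. Libraries differed in sex-linked transcripts within the groups: Xist ran from 2490 to 9780 normalised counts in control libraries and was 7565, 0 and 2.15 in cKO 1, 2 and 3, and the first principal component, 49.07% of the variance, separated control 1 and cKO 1 from the remaining 4. Sdhc itself averaged 1726 ± 149 in control libraries against 1556 ± 102 in cKO libraries (SD, n = 3 each; limma adjusted p = 0.978); counts per gene do not show a deleted exon and do not check the labels. Of the markers of the labelled cell type, Cd4 ran from 10113 to 11045 normalised counts over the 6 libraries, Cd3e, which all T cells share, from 8618 to 10046, and the alpha constant gene Trac from 4983 to 5985.

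**Figure D1:**
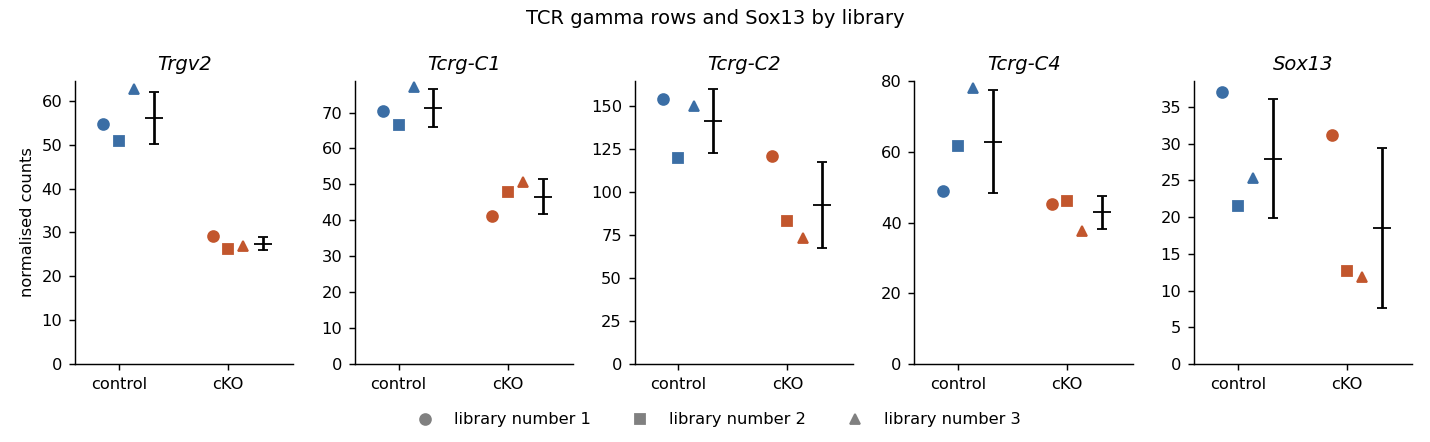
Normalised counts of the 5 rows in each library (points; the marker shape gives the library number in the title), with the mean and SD of each group of 3 as a cross-bar; every axis starts at 0. The groups are apart for Trgv2, Tcrg-C1 and Tcrg-C4, and overlap for Tcrg-C2 and Sox13, where cKO 1 stands with the controls.

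Trgv2 (ENSMUSG00000076754.2, chromosome 13, 19336573 to 19337167, minus strand, GRCm38) is the V segment of the cluster that holds Tcrg-C2. It had 54.6, 51.0 and 62.7 normalised counts in controls 1, 2 and 3 and 29.1, 26.2 and 26.9 in cKO 1, 2 and 3. All 3 cKO libraries were low and close to each other, and the groups did not overlap. The means were 56.1 ± 6.00 and 27.4 ± 1.52 (SD, n = 3 each), so the cKO level was 48.9% of control (log2 fold change -1.003 on the log2(value + 1) scale). The counting intervals of the 3 cKO libraries ended at 41.8, 37.6 and 39.7, and those of the controls began at 41.6, 38.1 and 47.5, so counting intervals of some single libraries overlapped across the groups. Within same-numbered libraries cKO stood at 53.3%, 51.4% and 42.9% of control.

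Tcrg-C1 (ENSMUSG00000076749.2, chromosome 13, 19214103 to 19217024, plus strand) encodes the constant region used with Tcrg-V4 and its neighbours. It had 70.4, 66.6 and 77.0 normalised counts in control libraries and 41.2, 47.9 and 50.6 in cKO. Again the groups did not overlap, with the lowest value in cKO 1. The means of 71.3 ± 5.24 and 46.6 ± 4.85 put cKO at 65.3% of control (log2 fold change -0.61).

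Tcrg-C4 (ENSMUSG00000076757.9, chromosome 13, 19344558 to 19352756, plus strand) is the most diverged of the constant genes here. It had 49.1, 61.7 and 78.1 normalised counts in control libraries and 45.2, 46.1 and 37.7 in cKO. The groups did not overlap, but control 1 lay only just above the cKO libraries. The means were 63.0 ± 14.5 and 43.0 ± 4.63, 68.3% of control (log2 fold change -0.52); without control 3 it was -0.36.

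Tcrg-C2 (ENSMUSG00000076752.2, chromosome 13, 19304649 to 19307551, minus strand) was the most abundant gamma row per length, at 154 normalised counts per kb of exon in control. It held 154, 120 and 150 in control libraries and 121, 83.2 and 73.2 in cKO. Here the groups overlapped: cKO 1 lay above control 2, and the other 2 cKO libraries lay below every control. The means were 141 ± 18.6 and 92.3 ± 25.0, 65.5% of control (log2 fold change -0.63). With the Y-linked share of reads as a covariate the fold change was -0.42.

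Sox13 (ENSMUSG00000070643.11, chromosome 1, 133382303 to 133424377, minus strand) was the lowest of the 5 rows. It had 37.0, 21.6 and 25.3 normalised counts in control libraries and 31.1, 12.7 and 11.8 in cKO. The groups overlapped, since cKO 1 lay above controls 2 and 3, although cKO was lower in each of the 3 same-numbered pairs, at 84.0%, 58.7% and 46.8% of control. The means were 28.0 ± 8.08 and 18.5 ± 10.9, 66.3% of control (log2 fold change -0.67). It was -0.25 with the Y-linked covariate, -1.09 without cKO 1, -0.43 without cKO 3 and -0.45 without control 1. With 11 to 40 reads per library, the counting intervals ran from 5.91 to 21.2 in cKO 3 and from 26.5 to 50.4 in control 1.

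All 5 rows passed the filter on low values (above 10 in at least 3 libraries), each of them in all 3 libraries of both groups, so none passed through 1 group alone. Among the 12699 tested genes 0 were called by limma at an adjusted p of 0.05 (0%), with 445 at an unadjusted p under 0.05; edgeR also called 0 and DESeq2 called 2, neither of them a member. All 3 cKO values lay below all 3 control values at 716 tested genes, or 5.64%, and above them at 573, or 4.51%. The members' 3 of 5 with the groups apart stand beside the first of these figures, but as the members were picked on this contrast nothing is read from it. The median log2 fold change over all tested genes was -0.01, with 6870 genes on the negative side and 5829 on the positive. Sign counts of the lists below stand beside these figures.

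The 4 gamma rows together came to 328, 299 and 367 normalised counts in control libraries and 236, 203 and 188 in cKO. Every cKO sum was below every control sum. The means were 331 ± 34.4 and 209 ± 24.4 (SD, n = 3 each), 63.1% of control (log2 fold change -0.66). It stayed between -0.75 and -0.59 with any 1 library left out, and was -0.57 with the Y-linked covariate. In bulk RNA, fewer cells that make a transcript and less of it per cell cannot be told apart.

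The shares of the constant genes overlapped between the groups. Tcrg-C2 made up 56.3%, 48.2% and 49.1% of the reads on the 3 constant genes in the controls and 58.3%, 46.9% and 45.3% in cKO. The 95% Clopper-Pearson intervals were wide, for example 50.4% to 62.0% in control 1 and 37.2% to 53.7% in cKO 3. The highest Tcrg-C2 shares were those of the libraries numbered 1, in both groups. Tcrg-C1 held 25.3% to 26.9% in the controls and 19.9% to 31.3% in cKO, and Tcrg-C4 18.0% to 25.6% and 21.8% to 26.0%. Trgv2 stood at 35.5%, 42.6% and 41.9% of the Tcrg-C2 value in the controls and at 24.2%, 31.5% and 36.8% in cKO. These ranges overlap at cKO 3.

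**Figure D2:**
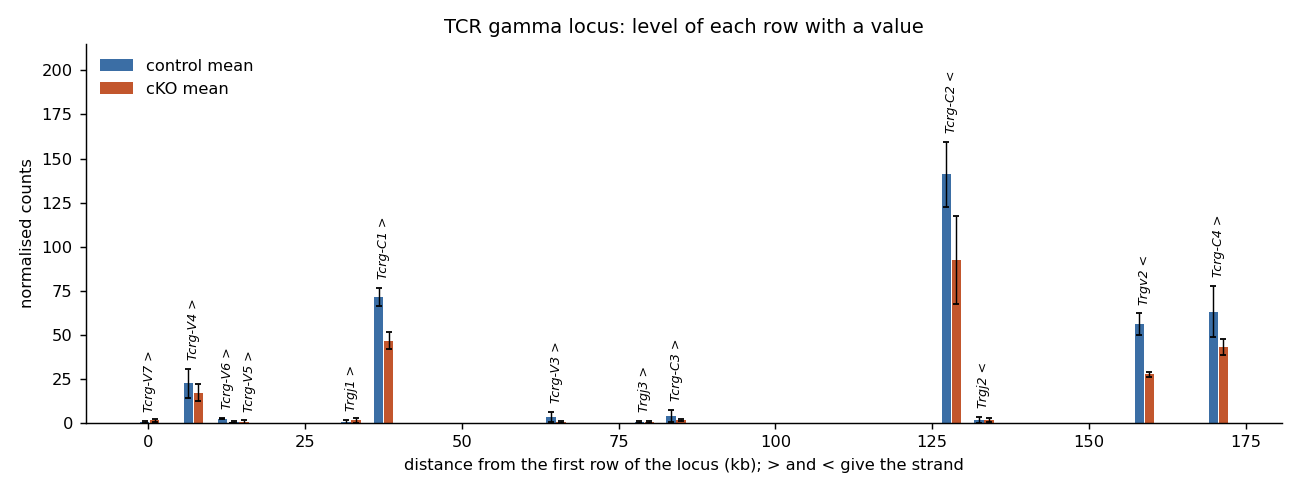
Mean normalised counts (bars, SD as error bars, n = 3 libraries each) of each row of the gamma locus against distance in kb from its first annotated segment; > and < give the strand. The level sits on Tcrg-C1, Tcrg-C2, Trgv2, Tcrg-C4 and, lower, Tcrg-V4, and other segments are near 0.

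Other rows of the gamma locus were few and low. Of 9 rows that are no members, 8 stayed under 10 normalised counts in every library. The exception was Tcrg-V4, the V segment of a common peripheral gamma delta subset, with 20.4, 31.4 and 15.4 in the controls and 19.1, 11.7 and 20.4 in cKO. Its groups overlapped (log2 fold change -0.35, SE 0.36, limma adjusted p = 0.978). Tcrg-V6, the V segment of a fetal gamma delta subset, had 3, 2 and 2 reads in the controls and 0 in each cKO library, which is at or under the floor of 3 reads in every library. Tcrg-C3 reached at most 5.88 and Tcrg-V3 at most 6.60 normalised counts. Tcrg-V5, Tcrg-V7 and the J segments Trgj1, Trgj2 and Trgj3 reached at most 3.30. Tcrg-V1 was not analysed here.

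Rows of the delta locus, which encodes the partner chain and was not used to choose the members, were also low. Trdv1 (chromosome 14, 53881612 to 53882217, plus strand) had 24.1, 22.5 and 33.0 normalised counts in control libraries and 17.1, 14.5 and 15.1 in cKO. These groups did not overlap, and Trdv1 differed by -0.72 on the log2 scale (SE 0.26; limma adjusted p = 0.978; exact permutation p = 0.1, the smallest that 3 against 3 allows, n = 3 each). Trdv5 had 21.3, 17.6 and 26.4 against 13.1, 10.8 and 16.1 (log2 fold change -0.67, SE 0.29, limma adjusted p = 0.978). It overlaps the annotated delta constant gene on the opposite strand, and the strand setting of the counting is not given in the sources used here, so its reads may belong to either.

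Trdv2-2 had 13.9, 9.80 and 7.70 normalised counts in control libraries and 4.02, 3.62 and 7.53 in cKO, too few for the test. The J segment Trdj1 had 19.4, 34.3 and 28.6 against 21.1, 6.33 and 18.3, with overlap at cKO 1 (log2 fold change -0.92, SE 0.46, limma adjusted p = 0.978). Trdv4, a V segment of fetal gamma delta subsets, did not exceed 2.20 in any library, Trdj2 3.70 or Trdv2-1 1.81; of these, Trdv2-1 alone had all cKO values above all controls, at 0 to 2 reads. The delta constant gene Trdc was not analysed here.

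Summed over 7 delta rows, the libraries held 85.2, 87.2 and 101 normalised counts in control libraries and 57.2, 40.7 and 58.1 in cKO. The sums did not overlap (means 91.2 ± 8.70 and 52.0 ± 9.83, 57.0% of control). The exact permutation p was 0.1, the smallest possible with n = 3 each, and 0.25 after Benjamini-Hochberg adjustment over the 5 sums compared. The log2 ratio of the means was -0.81 and stayed between -0.90 and -0.66 with any 1 library left out. Of the 3 delta rows past the filter, 3 had negative fold changes and 0 were called by limma or edgeR, with 1 at an unadjusted p under 0.05.

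**Figure D3:**
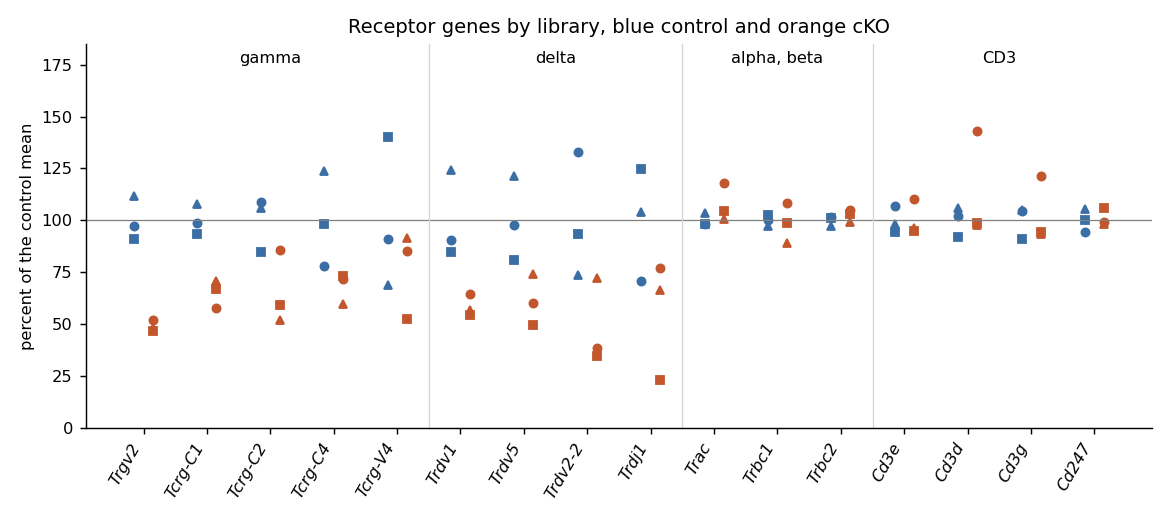
Value of each receptor gene in each library as a percentage of that gene's control mean (marker shape as library number, grey line at 100%), for the gamma, delta, alpha and beta loci and the CD3 chains. The cKO points of the gamma and delta rows lie mostly below 100%, and those of the alpha and beta constant genes lie around it.

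The alpha and beta constant genes had fold changes near 0. Trac, the alpha constant gene, had 4983, 4989 and 5241 normalised counts in control libraries and 5985, 5300 and 5103 in cKO (log2 fold change 0.10, SE 0.08). Trbc1 and Trbc2, the beta constant genes, stood at -0.02 (SE 0.09) and 0.04 (SE 0.07) on the log2 fold scale. In none of these 3 were the groups apart. Of 8 tested genes of the alpha beta receptor and CD3 list, 7 were on the positive side, with a median of 0.04, and 0 were called in either direction or had an unadjusted p under 0.05. With the Y-linked covariate Cd3d, a CD3 chain, was higher (limma adjusted p = 0.0331), where 6.5% of all tested genes were called.

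Variable segments of the alpha and beta chains were mostly on the positive side. Of 60 tested alpha V segments 46 had positive fold changes, with a median of 0.13, and of 21 tested beta V segments 17 did, with a median of 0.07. By limma 0 of either were called, and 1 beta segment, Trbv13-3, was at an unadjusted p under 0.05; with the Y-linked covariate it was higher (log2 fold change 0.53, limma adjusted p = 0.0436). Of the alpha segments that can also join the delta chain, 8 were tested, 2 were on the negative side, with a median of 0.27. Summed alpha V segments came to 1988, 1915 and 2197 normalised counts in control libraries and 2489, 2172 and 2104 in cKO, which overlap. The 2 V lists were added after the rows of the table were seen.

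Per kb of exon, the 3 gamma constant genes together stood at 2.22%, 1.996% and 2.55% of the level of the beta constant genes in controls 1, 2 and 3. In cKO they stood at 1.601%, 1.42% and 1.36%. The means were 2.25% ± 0.279 and 1.46% ± 0.124 (SD, n = 3 each). Stretches shared by Trbc1 and Trbc2 were not measured. How reads with several matches affect these percentages is therefore not known. The beta level itself was 13123 ± 285 and 13319 ± 606 normalised counts per kb, so the difference in this ratio is that of the gamma genes already described. Among the 5 rows, the order of control levels per kb was Tcrg-C2 (154), Trgv2 (114), Tcrg-C1 (77.2), Tcrg-C4 (63.9) and Sox13 (6.49). In cKO it was Tcrg-C2 (101), Trgv2 (55.8), Tcrg-C1 (50.4), Tcrg-C4 (43.6) and Sox13 (4.30), so Trgv2 came down to near the level of Tcrg-C1. In control the ranges of Tcrg-C1 and Tcrg-C4 overlapped over the libraries, and in cKO so did those of Trgv2 and Tcrg-C1 and those of Tcrg-C1 and Tcrg-C4.

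Markers of gamma delta cells other than gamma genes were looked at next. Among those fixed beside Sox13, the delta segments Trdv1, Trdv5 and Trdv4 had a lower mean in cKO, as described above. The fixed markers Cd163l1 and 5830411N06Rik had a higher mean in cKO, at 170% and 107% of control, from few reads. Markers outside the receptor loci were near the floor: the scavenger receptor gene Cd163l1 had 0.926 to 8.03 normalised counts, the kinase gene Blk at most 2.94, and the cytokine genes Il17a and Il17f at most 3.30 and 2.15. The interleukin-23 receptor gene Il23r had 12.7 to 25.0 and 5830411N06Rik had 6.86 to 14.5. In each of these 6 genes the groups overlapped. The part of gamma delta cells in the gamma and delta differences was not tested.

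Zbtb16 encodes PLZF, a factor of innate-like T cells. It had 362, 62.7 and 66.0 normalised counts in control libraries and 218, 85.0 and 80.7 in cKO (log2 fold change -0.00, SE 0.69). Zbtb16 was high in both libraries numbered 1. In pair 1 cKO stood at 60.2% of control, and in pairs 2 and 3 at 135% and 122%. In the wider gamma delta program 9 of 13 tested genes were on the negative side (median -0.15), with 0 called by limma and 1, Etv5, at an unadjusted p under 0.05. Its most abundant members, Tcf12 and Cd27, stood at 0.01 (SE 0.10) and 0.20 (SE 0.11) on the log2 fold scale. Etv5, an ETS factor used by developing gamma delta cells, had 1016, 873 and 859 in the controls and 515, 605 and 758 in cKO. Its groups did not overlap (log2 fold change -0.56, SE 0.15, limma adjusted p = 0.978). With the Y-linked covariate it was lower (log2 fold change -0.63, limma adjusted p = 0.0241), the 1 program gene of 13 called in that fit, in which 6.5% of all tested genes were called.

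**Figure D4:**
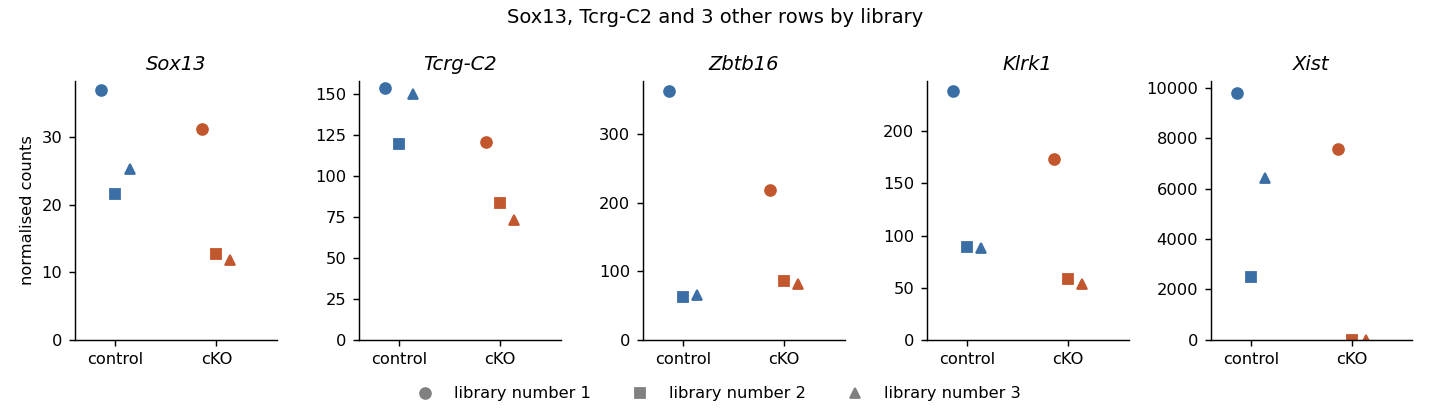
Normalised counts of Sox13, Tcrg-C2, Zbtb16, the NK receptor gene Klrk1 and Xist in each library (points; marker shape as library number; axes start at 0). In both groups the library numbered 1 is the highest for each of these rows.

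Sox13 and Tcrg-C2 were highest in the library numbered 1 within each group, though Tcrg-C2 in control 1 (154) was close to control 3 (150). Log2 values of Sox13 and Tcrg-C2 correlated at Pearson r = 0.92 over the 6 libraries and at 0.94 after the group means were removed. The second value was the highest among pairs of the 5 rows. In the same order Sox13 correlated with Trgv2 at 0.63 and 0.43, with Tcrg-C1 at 0.36 and -0.68, and with Tcrg-C4 at 0.39 and -0.10. Tcrg-C1 and Tcrg-C2 correlated at 0.64 and -0.53. These are descriptions over 6 libraries that share depth and group. Klrk1, an NK receptor gene, had 239, 89.2 and 88.0 normalised counts in control libraries and 174, 58.7 and 53.8 in cKO, and so was high in the same 2 libraries. Xist was highest there too. The part of sex-linked or innate-like transcripts in the Sox13 difference was not tested.

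Among 10289 genes with a mean of at least 50, those whose log2 values tracked the summed gamma rows best over the 6 libraries were Zbtb32 (r = 0.99; 0.95 with the group means removed), Fbxo22 (r = 0.99; 0.93) and Coro1c (r = 0.98; 0.90). Zbtb32, a zinc finger repressor gene of activated lymphocytes, had 201, 187 and 222 normalised counts in control libraries and 164, 157 and 141 in cKO. For Sox13 they were Nipsnap1, Kdm6a and Anxa1, each with r = 0.99 and 0.98 to 0.99 with the group means removed. Both sets top a ranking of 10289 genes over 6 libraries, so a high r is partly a product of that choice. The r with the group means removed comes from the same values and is no separate check. Kdm6a is an X-linked histone demethylase gene that escapes X inactivation; it had 1631, 1210.5 and 1396 in the controls and 1445, 1024 and 989 in cKO.

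Genes known to control the gamma locus were taken as a list. Interleukin-7 receptor signalling through JAK1, JAK3 and STAT5 opens the locus, and Runx and Myb factors bind its enhancers. On this list 10 of 15 genes were on the negative side, and their median of -0.05 stands beside -0.01 over all tested genes; 0 were called by limma or edgeR and 3 had an unadjusted p under 0.05. These 3 were Jak3, Stat5a and Myb, and in each of them the groups were apart; over all tested genes 5.64% were apart in this direction and 445 of 12699 had an unadjusted p under 0.05. Stat5a had 1729, 2063 and 1883 normalised counts in control libraries and 1559, 1628 and 1622 in cKO (log2 fold change -0.24, SE 0.08). Jak3 had 4410, 3869 and 4097 against 3676, 3376 and 3528 (log2 fold change -0.22, SE 0.08). Myb had 736, 832 and 625 against 591, 567 and 607 (log2 fold change -0.30, SE 0.12). Each had a limma adjusted p of 0.978. The receptor gene Il7r (log2 fold change -0.10, SE 0.17), Stat5b (-0.05, SE 0.07) and Runx3 (-0.01, SE 0.07) had differences too small to resolve from their errors, as had the most abundant genes of the list, Jak1 (0.03, SE 0.08) and Ikzf1 (-0.05, SE 0.08). With the Y-linked covariate, Stat5a (limma adjusted p = 0.042) and Cbfb, the partner of the Runx factors (0.0344), were lower, 2 of 15 beside the 6.5% of all tested genes called in that fit.

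Other HMG-box factor genes were set beside Sox13. Among 9 tested, 8 lay on the negative side with a median of -0.05, and 0 were called or had an unadjusted p under 0.05. Hmgb2, a chromatin protein gene, stood at -0.04 (SE 0.09), and Tcf7 and Lef1, the T cell members of the family, stood at -0.03 (SE 0.08) and 0.04 (SE 0.10) on the log2 fold scale. Sox4 had 36.3 to 47.0 normalised counts in control libraries and 31.6 to 44.1 in cKO. Of the close relatives, Sox5 had 7.03 to 16.1 and Sox6 at most 1 read per library.

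Genes that flank the loci had fold changes near 0. Within 500 kb of the gamma locus 2 genes were tested: Stard3nl, a lipid transfer protein gene (log2 fold change -0.13, SE 0.11), and Vps41, a vesicle trafficking gene (-0.02, SE 0.09). Amph, Epdr1 and Gpr141 reached at most 8.80 normalised counts. Within 500 kb of Sox13, 9 genes were tested, 6 with positive fold changes, with a median of 0.03 and 0 called; the neighbours Mdm4, a p53 inhibitor gene, and Snrpe, a splicing gene, stood at 0.09 (SE 0.11) and -0.10 (SE 0.08) on the log2 fold scale. Ppp1r15b, Atp2b4, Lax1, Pik3c2b, Zbed6 and Plekha6 lay between -0.04 and 0.15, and Etnk2 at -0.46 (SE 0.80), with 62.1, 14.7 and 42.9 normalised counts in control libraries and 86.4, 12.7 and 12.9 in cKO. In none of the 11 tested neighbours were the groups apart.

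Markers of other cells that could be present were measured beside the gamma rows. The 5 fixed NK markers summed to 465, 516 and 484 normalised counts in control libraries and 407, 334 and 362 in cKO, lower in all 3 cKO libraries, and 5 of 5 had a lower mean in cKO, but in 0 of them were the groups apart. Within same-numbered libraries cKO was lower in 3 of 3 pairs for Klrk1 (72.7%, 65.9% and 61.2% of control), Klrd1 (72.3%, 79.0% and 76.7%) and Ncr1 (54.2%, 26.3% and 39.1%). The fixed markers Eomes (130%, 63.3% and 80.1%) and Klrb1c (102%, 76.8% and 97.8%) were above control in pair 1. Most of that sum was Eomes and Klrk1, while the defining gene Ncr1 had 1.81 to 22.0 normalised counts and overlapped. Over the wider NK list, mostly Nkg7, 7 of 7 tested genes lay on the negative side (median -0.39), and 0 were called (exact permutation p of the sum 0.1, n = 3 each; 0.25 adjusted over the 5 sums). Nkg7, a cytotoxic granule gene, had 2656, 2623 and 2684 against 2581, 1914 and 2158, with the groups apart and an unadjusted p under 0.05 (log2 fold change -0.27, SE 0.11, limma adjusted p = 0.978). Cd8a and Cd8b1, the CD8 chains of cytotoxic T cells, summed to 278 to 368 in the controls and 235 to 547 in cKO. The 4 fixed Th1 markers summed to 7457 to 8230 and 6792 to 7333, apart as sums. Of the 4, 3 had a lower mean in cKO, and in 2 the groups were apart, beside 5.64% of all tested genes. These 2 were Ifng and Tbx21. Ifng had 1342, 1461 and 1342 against 858, 880 and 865 (log2 fold change -0.67, SE 0.07, limma adjusted p = 0.265). Tbx21, the Th1 master factor gene, had 1660, 1961 and 1760 against 1371, 1501 and 1489.5 (log2 fold change -0.30, SE 0.09, limma adjusted p = 0.978). The 3 fixed B cell markers summed to at most 37.2 and the 3 fixed myeloid markers to at most 82.4, with overlap. The wider B cell list was mostly Ighm, the immunoglobulin mu constant gene. Ighm had 1577, 1913 and 1760 in control libraries and 1838, 2025.5 and 1824 in cKO (log2 fold change 0.12, SE 0.09). Cd79b ran from 21.5 to 39.2 over all libraries, and the myeloid gene Cd68 from 48.4 to 103. The part of NK cells in the gamma difference was not tested.

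**Figure D5:**
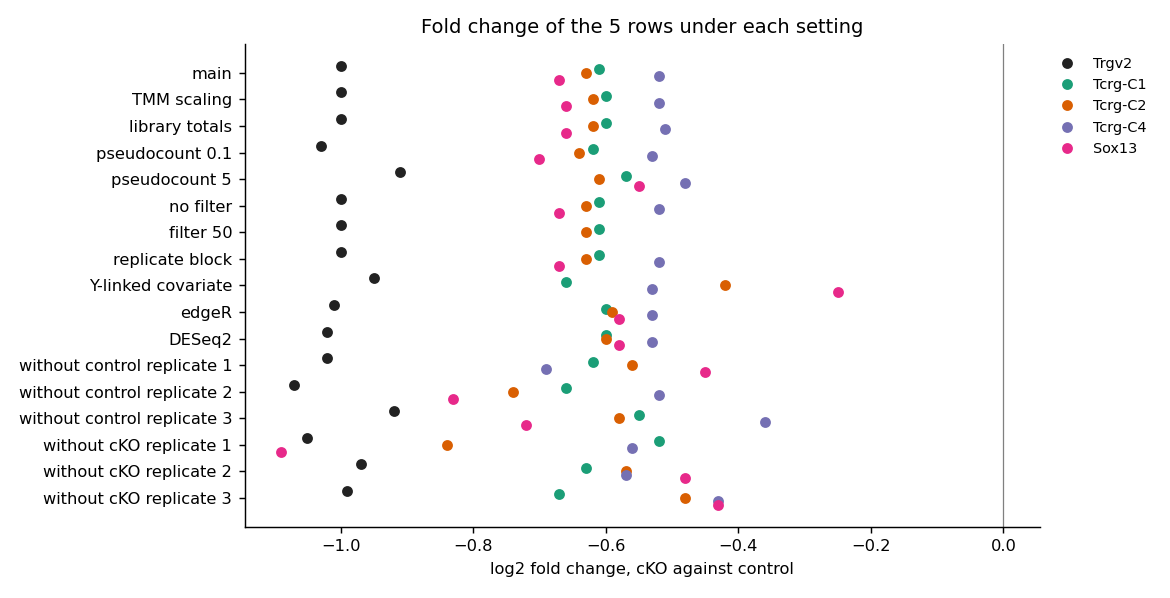
Log2 fold change of each of the 5 rows (cKO against control, log2 scale) under each setting tried; Tcrg-C4 and Sox13 do not pass the filter at 50. All points lie below 0; Trgv2 stays between -1.07 and -0.91 and Sox13 spreads most, from -1.09 to -0.25.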

How the data were processed

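RNA-seq of 6 libraries was used, 3 control and 3 Sdhc cKO, grouped by title. STAR, HTSeq, DESeq2 and the build mm10 are named in the submitters' processing notes; versions, annotation and strand setting are not stated there. The deposited signal values are gene counts that the authors divided by 1 size factor per library: dividing a library's values by its smallest step gave whole reads for 100% of genes (tolerance 0.01). Positions and exon lengths came from GENCODE M21.

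Genes above 10 in at least 3 libraries (12699) were tested on log2(value + 1) by limma 3.58.1 with its trend option in R 4.3.3, genotype only, Benjamini-Hochberg threshold 0.05; this scale understates changes of low genes. The planned test for normalized values was kept. Alternatives were other scalings, filters and pseudocounts, edgeR 4.0.16 and DESeq2 1.42.0 on recovered reads, a replicate block, a covariate (the Y-linked share of reads, from Eif2s3y, Ddx3y, Uty and Kdm5d) and each library left out. Sums were compared by 2-sided exact permutation.

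Libraries with the same number deviated together from the group means (r across genes 0.579, 0.458 and 0.188). However, cKO 3 was closer to control 2 (r = 0.272) than to control 3, so pair 3 is not borne out. Pairing the libraries by number is therefore an assumption, which the labels do not state. Members and lists were chosen with earlier results of these data known. Named genes were the members, all rows of the gamma and delta loci, called or the 2 most abundant genes of each list, defining markers, neighbours with a mean of at least 10, and the 3 genes most like each pattern. Further genes were named after their values were seen, such as those at an unadjusted p under 0.05. A listed marker and the sums that include it are not reported here.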

Additional observations from a re-analysis of the deposited data

How the results depend on the processing

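The summed gamma rows and each of the 5 rows kept their direction under every setting tried for them. Each moved by less than 1 of its own within-group SD on the log2 scale, a yardstick that is widest for the most variable row. Sox13, at -0.67, moved to -0.25 with the Y-linked covariate and to -1.09 without cKO 1. With each library left out, log2 fold changes ran from -1.07 to -0.92 for Trgv2, -0.67 to -0.52 for Tcrg-C1, -0.84 to -0.48 for Tcrg-C2, -0.69 to -0.36 for Tcrg-C4 and -1.09 to -0.43 for Sox13. At a filter of 50 Trgv2 passed through the controls alone, and Tcrg-C4 and Sox13 did not pass. The number of genes called over the whole table, 0 in the fit on genotype, was 1 with the replicate block (Ifng), 2 with DESeq2 (Ifng and Dleu2), 826 with the Y-linked covariate, and 0 to 1 with a library left out (Xist, without cKO 1). The block left the fold changes of the 5 rows and of the summed gamma rows (-0.66) as they were. Beside Ifng (limma adjusted p 0.265 without and 0.0255 with the block) it changed no call. The alpha beta receptor sum, 0.06 (log2), ran from -0.01 (without cKO 1) to 0.10 with a library left out; the cause was not tested. The sums of the delta (-0.90 to -0.66), NK (-0.43 to -0.19) and CD8 genes (0.02 to 0.60) kept their sign. With 11 to 166 reads per member and library, counting error limits comparisons of single libraries.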
